A study of Mus musculus with 16 samples.

Results

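Semaphorins, plexins and neuropilins were followed in sorted mouse bone endothelial cells (ECs). The members were all genes whose symbols are those of vertebrate semaphorin classes 3 to 7, of the plexins A to D and of neuropilin 1 and 2. This gave 31 genes, namely 20 semaphorins, 9 plexins and 2 neuropilins, and all 31 were found in each deposited table, among 38926 gene names in the mpEC and bmEC table and in the Lats2 table and among 21603 gene identifiers in the Yap1/Wwtr1 lists. No expression value entered the rule that chose them, although earlier results of these data were known.

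Semaphorins are secreted or membrane-bound guidance proteins that were first described as repellents of growing axons. Plexins are their transmembrane receptors, which act in the cell on the cytoskeleton and on integrin adhesion. Most secreted class 3 semaphorins bind a neuropilin, which pairs with a plexin A or with plexin D1, and neuropilins are also co-receptors for vascular endothelial growth factors (VEGFs). In the vasculature the family is known for steering vessel sprouts, and in bone Sema3a and Sema4d are known for their action on osteoblasts and osteoclasts.

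RNA was sequenced from 16 libraries of mice of the C57BL/6 background in 3 comparisons, and by the study's methods the mice were 3 weeks old throughout. The first set 3 libraries of metaphyseal ECs (mpECs) beside 3 of diaphyseal bone marrow ECs (bmECs). These cells are labelled wildtype and, as the study describes, were sorted by the fluorescent membrane and nuclear reporter that ECs of Cdh5-mT/nG mice carry. The second set 3 libraries of Yap1flx/flx; Wwtr1flx/flx mice that were Cdh5CreERT2 negative beside 3 that were Cdh5CreERT2 positive (titled ECKO), all labelled postnatal day 21. The third set 2 libraries of Lats2flx/flx; Cdh5CreERT2 negative mice beside 2 that were Cdh5CreERT2 positive (titled Lats2 cKO). In both mutant designs controls and mutants carried the floxed alleles, the controls were Cre-negative littermates, and the tamoxifen-inducible Cre was driven by the Cdh5 promoter, which is active in ECs. In the mutant sets metaphyseal and marrow ECs were not labelled apart.

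The values are FPKM as the authors deposited them, a unit that scales fragments to gene length and by a factor for each library. How that factor was set is not given in the sources used here. Reads recovered from the FPKM values numbered 11112829 to 14744251 per library in the mpEC and bmEC set, 4886004 to 7166583 in the Yap1/Wwtr1 set and 4729888 to 7067621 in the Lats2 set. Each comparison was tested within its own libraries on log2(FPKM + 1) with limma, if a gene averaged 1 FPKM or more. A gene was called where its p-value, adjusted by Benjamini-Hochberg over the whole set of tested genes, was under 0.05. Differences are given as log2 fold changes of FPKM + 1, so those of weakly expressed genes are understated. A level can be compared between genes because FPKM is per length. In bulk RNA a lower value can come from fewer cells of a type or from less RNA per cell, and the values do not tell these apart.

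All 12 endothelial markers, among them Pecam1, Cdh5, Tek and Emcn, were tested in every set. Their summed level was 1653 to 2037 FPKM in mpECs and 2053 to 2175 in bmECs, 669 to 701 and 856 to 998 in the Yap1/Wwtr1 control and ECKO-labelled libraries, and 2878 to 3184 and 2757 to 2914 in the Lats2 control and cKO-labelled libraries. RNA of other cell types was present too. Erythroid markers summed to 28361 to 52993 FPKM in mpECs and 42654 to 60541 in bmECs, above every other list. Pericyte and marrow stroma markers summed to 104 to 135 FPKM in mpECs and 40.6 to 99.3 in bmECs. Of 7 tested genes of that list, 1 was called higher and 2 lower in bmECs. The neutrophil list summed to 11664 to 27862 FPKM in mpECs and 9466 to 13926 in bmECs, and the osteoblast and chondrocyte list was at 769.6, 410.5 and 160.5 FPKM in mpEC replicates 1 to 3 against 42.9 to 55.2 in bmECs (6 of 8 tested genes called lower in bmECs), as the plot of marker sums shows.

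**Figure D1:**
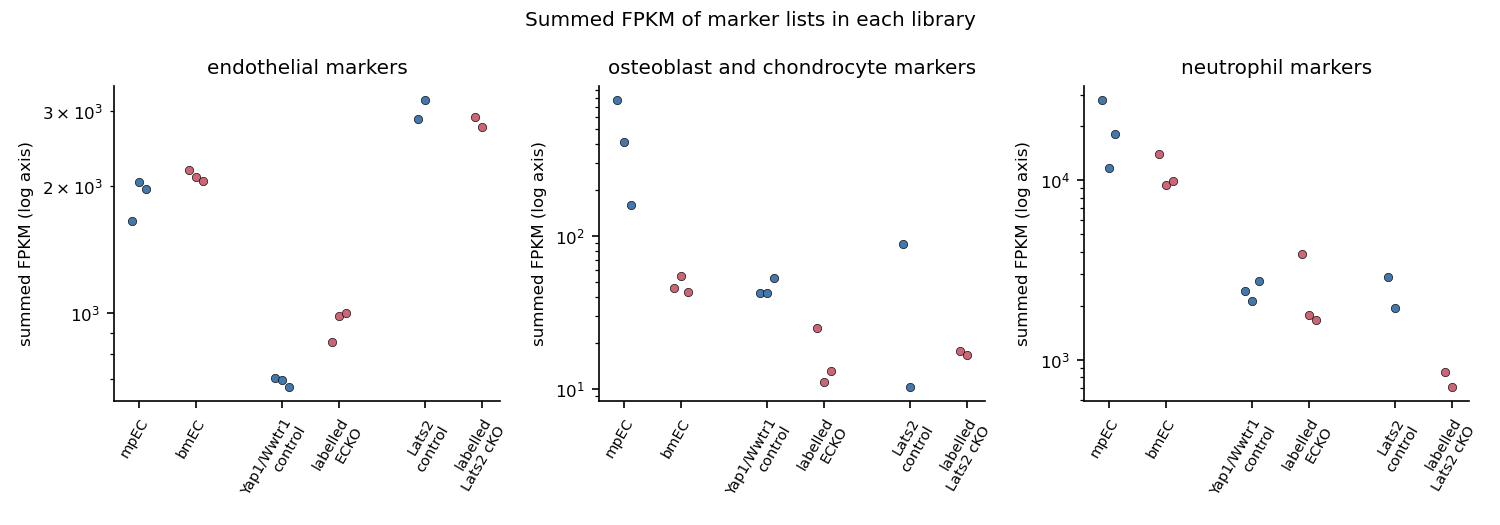
Summed FPKM (log axes) of the endothelial, osteoblast and chondrocyte, and neutrophil marker lists, 1 point per library, in the 6 groups of the 3 comparisons. The mpEC libraries hold the highest osteoblast and chondrocyte sums, and the ECKO-labelled libraries lie above their controls for endothelial and below them for osteoblast and chondrocyte markers.

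The sequences that precede the start sites of 4 of the called members are shown. Sema3a and Plxnc1 were higher in bmECs and lower in the cKO-labelled libraries, while Plxnd1 and Sema6d were lower in bmECs. Windows of 250 bases before to 50 after an annotated start, read 5′ to 3′ on the strand of the gene, came from RefSeq on GRCm38.p6. Capitals mark the letters ACGTG, the core bound by HIF factors, and GGAATG, the core bound by TEAD factors that work with Yap1 and Taz, on either strand. The Sema3a window lies at a RefSeq start inside the gene, and of the windows of Sema6d the upstream one is shown.
Sema3a (chr5:13396534-13396833, plus strand): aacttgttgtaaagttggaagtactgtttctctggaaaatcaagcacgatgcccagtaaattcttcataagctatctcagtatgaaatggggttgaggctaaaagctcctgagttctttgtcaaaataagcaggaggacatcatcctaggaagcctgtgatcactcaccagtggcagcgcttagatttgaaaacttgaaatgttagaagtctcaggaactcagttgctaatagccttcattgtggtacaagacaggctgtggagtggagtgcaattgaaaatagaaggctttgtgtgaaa
Plxnc1 (chr10:94944796-94945095, minus strand): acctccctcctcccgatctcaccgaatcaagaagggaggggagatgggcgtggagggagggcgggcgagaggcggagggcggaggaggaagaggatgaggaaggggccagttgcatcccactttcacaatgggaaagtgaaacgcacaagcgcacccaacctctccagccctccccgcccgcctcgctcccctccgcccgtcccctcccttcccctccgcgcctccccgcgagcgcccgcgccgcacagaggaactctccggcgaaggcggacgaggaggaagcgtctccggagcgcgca
Plxnd1 (chr6:115994956-115995255, minus strand): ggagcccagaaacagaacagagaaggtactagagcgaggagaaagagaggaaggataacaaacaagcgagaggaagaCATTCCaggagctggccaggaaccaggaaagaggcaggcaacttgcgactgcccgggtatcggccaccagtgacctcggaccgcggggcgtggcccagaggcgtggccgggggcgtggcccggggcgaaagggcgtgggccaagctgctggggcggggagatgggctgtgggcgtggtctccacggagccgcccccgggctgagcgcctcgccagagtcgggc
Sema6d (chr2:124089719-124090018, plus strand): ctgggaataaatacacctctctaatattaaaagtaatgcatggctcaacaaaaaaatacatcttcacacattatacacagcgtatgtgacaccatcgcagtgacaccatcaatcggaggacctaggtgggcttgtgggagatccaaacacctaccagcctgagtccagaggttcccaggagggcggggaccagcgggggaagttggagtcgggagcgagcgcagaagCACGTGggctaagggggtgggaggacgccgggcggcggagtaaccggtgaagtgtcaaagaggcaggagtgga

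The Sema3a and Plxnc1 windows hold neither motif. The same holds for the windows of Sema3g, called lower in bmECs, and Plxna2, called higher in the cKO-labelled libraries, which are not printed. For Sema3f, which was also called, no window was at hand. The Plxnd1 window holds GGAATG on the opposite strand, printed here as CATTCC, beginning 173 bases before the start. The Sema6d window shown holds ACGTG on both strands, overlapping as CACGTG, beginning 23 bases before the start. These letters are also the core of an E-box. The other Sema6d window, which is not printed, holds neither motif. A window was at hand for 26 of the 31 members, with 37 windows in all, of which 8 hold ACGTG and 3 hold GGAATG. Over 32851 windows of all genes, 19.6% hold ACGTG and 14.7% hold GGAATG. A match is a match of letters in this window, and nothing about the binding of a factor was measured.

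Nrp1, which encodes the co-receptor shared by class 3 semaphorins and VEGFs, was the most abundant member in mpECs and bmECs. It stood at 128, 142 and 131 FPKM in mpECs and 146, 163 and 124 FPKM in bmECs, above 95.2% to 96.2% of the genes at 1 FPKM or more in each of these libraries. Among plexins Plxnd1, the endothelial plexin, led with 76.2% to 79.0% of summed plexin FPKM in mpECs and 63.4% to 70.2% in bmECs. In mpECs the order of mean levels was Nrp1, Plxnd1 and Sema3a, each apart from the next in all libraries, followed by Nrp2, Sema6a, Sema6d and Sema3f, whose neighbours overlapped. In bmECs Sema3a took the second place above Plxnd1, again without overlap.

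The comparison of mpECs with bmECs asked which members differ between both bone EC subsets. The ligand Sema3a was higher in bmECs, 2.87-fold on the scale of FPKM + 1, and so was the receptor Plxnc1, 1.66-fold. The ligands Sema3f, Sema3g and Sema6d and the receptor Plxnd1 were lower, at 0.591, 0.519, 0.667 and 0.634 of the mpEC level on the same scale. In all, 14 of the 31 members reached a mean of 1 FPKM and were tested. Of the tested members, 2 were called higher and 4 lower in bmECs, beside 13.0% of all genes tested that were called higher and 10.5% called lower. The median log2 fold change of the tested members was -0.02 and that of all genes tested was -6.77e-04. The 6 called members were also those whose groups did not overlap, as was the case for 41.3% of all genes tested, 22.1% with bmECs higher and 19.2% with bmECs lower. Without mpEC replicate 1, the library with most osteoblast and chondrocyte RNA, the counts were again 2 and 4. The mpEC replicates 2 and 3 still had marker sums of 410.5 and 160.5 FPKM for these cells, above every bmEC library. The part of this RNA in the calls was not tested. The same 6 had an unadjusted p-value under 0.05, beside 36.1% of all genes tested.

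Sema3a, a secreted ligand that signals through Nrp1 and plexin A receptors, had the largest log2 fold change of the tested members in size. It stood at 18.6, 18.2 and 16.2 FPKM in mpECs and 56.6, 49.2 and 52.03 FPKM in bmECs. Every bmEC library lay far above every mpEC library. The log2 fold change was 1.52 (adjusted p = 4.28e-05, SE 0.0914), and the call held without any single library. It made up 26.7% to 35.1% of the summed semaphorin FPKM of an mpEC library and 63.6% to 69.6% of that of a bmEC library.

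The other class 3 ligands that were tested, Sema3f and Sema3g, were lower in bmECs. Sema3f, which signals through Nrp2, stood at 6.08, 6.94 and 10.2 FPKM in mpECs and 4.55, 3.61 and 4.08 FPKM in bmECs. The bmEC libraries were all below the mpEC libraries, of which replicate 3 stood highest. The log2 fold change was -0.76 (adjusted p = 0.0175, SE 0.177). Without bmEC replicate 2 the adjusted p-value was 0.0599. The ratio of Sema3a to Sema3f was 1.59 to 3.06 in mpECs and 12.4 to 13.6 in bmECs.

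Sema3g, a class 3 ligand known from arterial endothelium, stood at 3.01, 4.11 and 4.90 FPKM in mpECs and 1.31, 1.40 and 2.06 FPKM in bmECs, again with no overlap. Its log2 fold change was -0.94 (adjusted p = 0.00757, SE 0.181). Sema3d was not tested because its mean was below 1 FPKM, but its values were 2.49, 1.51 and 1.34 FPKM in mpECs and 0.149, 0.0486 and 0.0521 FPKM in bmECs. Recovered reads for Sema3d ranged from 3.95 to 264.7 per library, and without the filter on low values it was called lower with an adjusted p-value of 0.00547. Sema3d was highest in mpEC replicate 1, the library with the highest osteoblast and chondrocyte marker sum, and the part of these cells in the values was not tested. Sema3b, Sema3c and Sema3e were at most 0.324 FPKM in the 6 libraries.

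**Figure D2:**
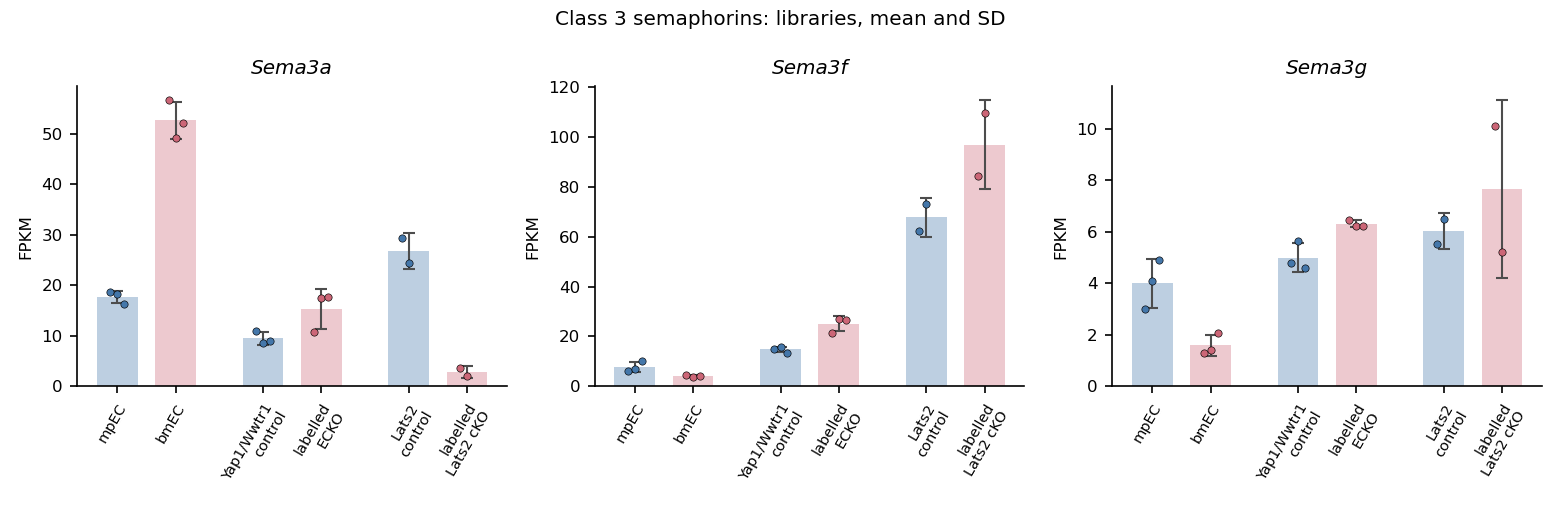
FPKM of Sema3a, Sema3f and Sema3g (linear axes from 0) in the 6 groups, with points for libraries, bars for the group mean and lines for the SD (n = 3, and n = 2 in the Lats2 groups). Sema3a is high in bmECs at 49.2 to 56.6 FPKM and low in the cKO-labelled libraries at 2.08 and 3.69 FPKM, whereas Sema3f is lower in bmECs than in mpECs and higher in the ECKO-labelled libraries than in their controls. The 3 sets were scaled separately, so only neighbouring bars of the same set were tested.

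Sema3d, Sema3a, Sema3e and Sema3c follow each other in this order on the plus strand of chromosome 5, with Sema3a at chr5:13125414-13602565. The gap from Sema3d to Sema3a is 536465 bases, that from Sema3a to Sema3e is 422710 bases and that from Sema3e to Sema3c is 3317591 bases in the GENCODE annotation of GRCm38. In the EC subsets Sema3a was thus higher in bmECs while its neighbour Sema3d was higher in mpECs, and Sema3e and Sema3c were near 0. Sema3f and Sema3b lie 72270 bases apart on the minus strand of chromosome 9, with Sema3f at chr9:107681500-107710475, and only Sema3f was expressed at a level that could be tested.

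Of the membrane-bound semaphorins, 5 of 13 were tested and Sema6d was called. Sema6d, a transmembrane ligand of Plxna1, stood at 7.33, 9.88 and 9.996 FPKM in mpECs and 4.83, 5.59 and 6.69 FPKM in bmECs. The groups did not overlap, and the log2 fold change was -0.58 (adjusted p = 0.0268, SE 0.151). The call was the least stable of the 6, with an adjusted p-value of 0.0837 and 0.0970 without mpEC replicates 2 and 3, of 0.0865 and 0.0741 without bmEC replicates 1 and 2, and of 0.0645 with no filter on low values.

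Sema6a, the ligand of Plxna2 and Plxna4, stood at 7.33, 9.83 and 10.3 FPKM in mpECs and 8.11, 9.06 and 10.3 FPKM in bmECs. Its groups overlapped throughout and its log2 fold change was 0.01 (SE 0.143). Sema4b, Sema4c and Sema6b were between 0.777 and 1.94 FPKM in all 6 libraries, with adjusted p-values of 0.237, 0.219 and 0.849. Sema4a, Sema4d and Sema7a missed the filter with values between 0.147 and 1.49 FPKM. Sema4d, the ligand of plexin Bs, stood at 1.49, 0.995 and 1.25 FPKM in mpECs and 0.641, 0.475 and 0.540 FPKM in bmECs. Sema7a, a GPI-anchored ligand of integrins and Plxnc1, stood at 1.13, 0.912 and 1.22 FPKM in mpECs and 0.147, 0.481 and 0.412 FPKM in bmECs. Both were higher in every mpEC than in every bmEC library, and both were called lower in bmECs without the filter. Macrophage, monocyte and osteoclast markers were also higher in mpECs, at 1207 to 2181 against 799 to 1121 FPKM summed with 3 of 8 tested genes called, and their part in these values was not tested.

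Of the receptors, Plxnd1 was called lower and Plxnc1 higher in bmECs. Plxnd1, the receptor for Sema3e and, with neuropilins, for other class 3 ligands, stood at 31.5, 40.5 and 41.3 FPKM in mpECs and 21.6, 21.2 and 27.9 FPKM in bmECs. All bmEC libraries were below all mpEC libraries, and the log2 fold change was -0.66 (adjusted p = 0.0130, SE 0.142). Without mpEC replicate 3 the adjusted p-value was 0.0522. Plxnc1, the receptor for Sema7a, stood at 1.62, 1.22 and 1.20 FPKM in mpECs and 2.99, 2.86 and 2.76 FPKM in bmECs. This was a low level with a clear gap between groups, with a log2 fold change of 0.73 (adjusted p = 0.00504, SE 0.127). It was called under every alternative in which it was tested, and a filter at 5 FPKM left it out. Plxna2 and Plxnb2 were between 2.37 and 4.89 FPKM, with adjusted p-values of 0.513 and 0.806.

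The neuropilins did not pass the test. For Nrp1 the log2 fold change was 0.10 (adjusted p = 0.540, SE 0.111). Nrp2, the co-receptor preferred by Sema3f and a co-receptor for Vegfc, stood at 8.14, 12.2 and 11.6 FPKM in mpECs and 9.34, 9.93 and 11.02 FPKM in bmECs, with a log2 fold change of -0.05 (adjusted p = 0.830, SE 0.151). The remaining plexins, Plxna1, Plxna3, Plxna4, Plxnb1 and Plxnb3, were at most 0.724 FPKM in every library. Among them Plxnb1 stood at 0.208, 0.258 and 0.173 FPKM in mpECs and 0.0136, 0.0118 and 0 FPKM in bmECs. Its groups did not overlap, with at most 24.7 recovered reads per library. Of the 17 members that were not tested, 13 were under 1 FPKM in all 6 libraries, and Sema5b was at 0 in all of them.

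**Figure D3:**
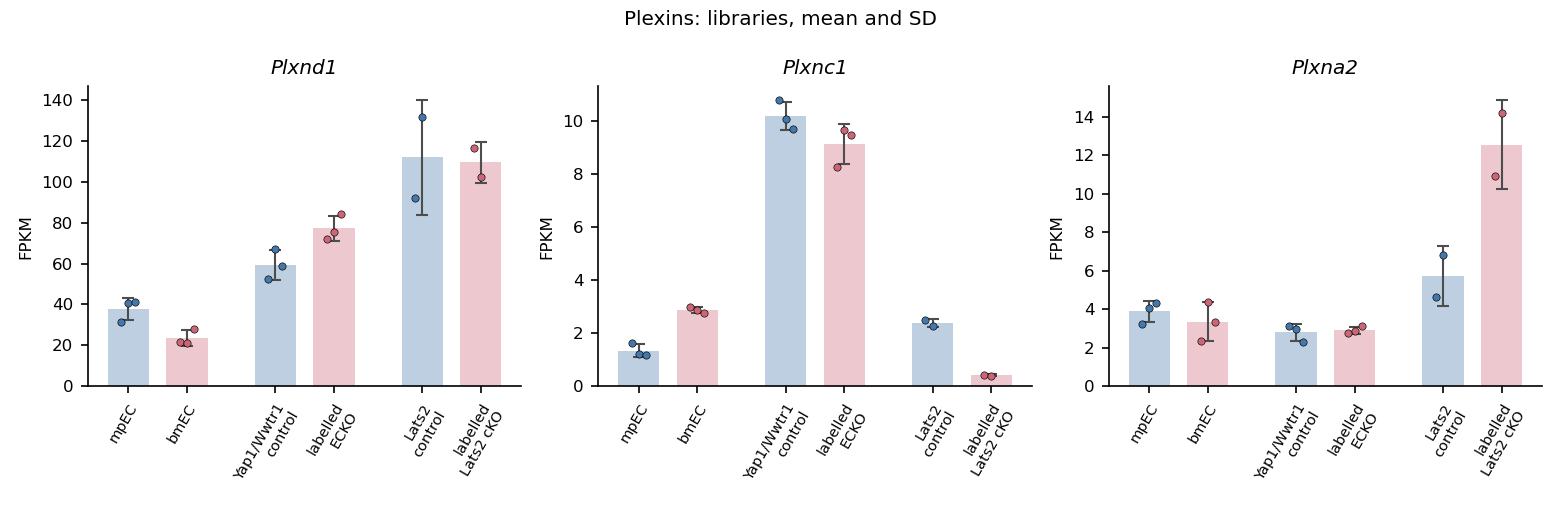
FPKM of Plxnd1, Plxnc1 and Plxna2 (linear axes from 0) in the 6 groups, with points for libraries, bars for the group mean and lines for the SD (n = 3, and n = 2 in the Lats2 groups). Plxnd1 is lower in bmECs than in mpECs, Plxnc1 is higher in bmECs and at 0.440 and 0.385 FPKM in the cKO-labelled libraries, and Plxna2 is higher in the cKO-labelled libraries, at 10.9 and 14.2 FPKM, than in their controls.

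Genes of the wider pathway were counted by list. Of the 8 VEGF ligands and receptors that share neuropilins, 6 were tested and 2 were called higher and 3 lower in bmECs, with a median log2 fold change of -0.04. Flt4, the receptor for Vegfc, rose from 74.2 ± 8.55 to 160.5 ± 6.31 FPKM (SD, n = 3, adjusted p = 1.92e-04). Its ligand Vegfc fell from 18.3 ± 2.06 to 3.47 ± 1.22 FPKM (adjusted p = 1.97e-04). Pgf, a ligand of Flt1, fell from 9.22 ± 0.922 to 1.55 ± 0.705 FPKM (adjusted p = 2.67e-04).

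Of 16 co-receptors and other semaphorin receptors 8 were tested, of which 3 were called higher and 3 lower with a median of -0.46. Itga1, the integrin chain that joins Itgb1 as a receptor for Sema7a, rose from 19.99 ± 2.39 to 47.2 ± 4.34 FPKM (adjusted p = 2.50e-04). Nrcam, a cell adhesion molecule that partners neuropilins, rose from 7.997 ± 0.756 to 15.3 ± 4.15 FPKM (adjusted p = 0.0114). Of the 15 genes for MICALs, collapsin response mediators and kinases that act behind plexins, 11 were tested and 6 were called lower and 0 higher, with a median of -0.47. Crmp1 fell from 4.81 ± 0.582 to 0.244 ± 0.0865 FPKM (adjusted p = 4.61e-05) and Dpysl3 fell from 8.09 ± 0.105 to 2.83 ± 0.417 FPKM (adjusted p = 2.23e-04), and both encode collapsin response mediator proteins.

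Of 19 GTPases and their regulators 14 were tested, of which 1 was called higher and 2 lower, with a median of -0.02. The higher gene was Rhod, whose GTPase binds plexins (from 6.30 ± 1.43 to 11.1 ± 0.836 FPKM, adjusted p = 0.00888). Of 8 proteases known to cut semaphorins or plexins all were tested, and 1 was called higher and 1 lower with a median of -0.18. These were the proprotein convertases Pcsk6, which rose from 0.559 ± 0.134 to 2.28 ± 0.359 FPKM (adjusted p = 0.00160), and Pcsk5, which fell from 2.55 ± 0.0700 to 0.470 ± 0.0494 FPKM (adjusted p = 3.00e-04). Pcsk6, Pcsk5 and Crmp1 reached the filter through the group in which each is high. The calls named here held without any single library. Each of these counts stands beside the same 13.0% and 10.5% over all genes.

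In the Yap1/Wwtr1 set the targeted genes were examined first. Yap1 stood at 1.07, 1.62 and 0.995 FPKM in the controls and 1.43, 1.03 and 0.989 FPKM in the ECKO-labelled libraries, with a log2 fold change of -0.04 (adjusted p = 0.934, SE 0.182). Wwtr1, which encodes Taz, stood at 10.01, 9.88 and 10.3 FPKM in the controls and 15.3, 19.6 and 19.5 FPKM in the ECKO-labelled libraries, and was called higher with a log2 fold change of 0.78 (adjusted p = 0.0272, SE 0.117). The Wwtr1 call was lost without the filter (adjusted p = 0.0679) and without control replicate 2 or 3 or ECKO-labelled replicate 2 or 3 (adjusted p = 0.0715 to 0.180), but the values were higher in every ECKO-labelled library. Neither gene was thus called lower, and the files do not show which exons the reads cover. The groups are therefore named by their labels, and the direction of each difference below is that between labels.

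The comparison asked which members differ between Cre-positive and Cre-negative mice. The ligand Sema3f was higher in the ECKO-labelled libraries, 1.64-fold on the scale of FPKM + 1, while the class 6 ligands Sema6a, Sema6b and Sema6d, Plxnd1 and Nrp1 had higher values in each of these libraries without passing the test. Of the 31 members 21 were tested in this set. Sema3f was called higher and 0 members were called lower, beside 0.883% of all genes tested that were called higher and 0.424% called lower. At a stricter threshold, an adjusted p-value under 0.01 with a log2 difference over 0.5 in size, 0 of the 21 members passed by limma, beside 0.00883% of all genes tested. At the usual threshold limma-voom on recovered reads called 3 members, Sema3f and Sema6a higher and Sema4d lower. At an unadjusted p-value under 0.05 were 11 of the 21 members, beside 17.9% of all genes tested. In 8 members all ECKO-labelled libraries lay above all controls and in 2 they lay below, beside 12.3% and 11.3% of all genes tested, or 23.6% together. The median log2 fold change was 0.25 for the members and -0.00472 for all genes tested. The endothelial marker sum was higher in every ECKO-labelled library than in every control, at 856, 983 and 998 FPKM against 701, 695 and 669 FPKM, with 1 of 12 genes called, and the part of this difference in the members' values was not tested.

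Sema3f stood at 15.2, 15.8 and 13.6 FPKM in the controls and 21.6, 27.2 and 26.6 FPKM in the ECKO-labelled libraries. The groups did not overlap, and the log2 fold change was 0.72 (adjusted p = 0.0347, SE 0.116). The adjusted p-value rose to between 0.0752 and 0.184 when control replicate 2 or 3 or ECKO-labelled replicate 2 or 3 was left out, and to 0.0679 without the filter. Sema3a stood at 10.9, 8.60 and 9.01 FPKM in the controls and 10.7, 17.4 and 17.7 FPKM in the ECKO-labelled libraries. ECKO-labelled replicate 1 lay within the controls and replicates 2 and 3 lay above them. The log2 fold change was 0.60 (adjusted p = 0.124, SE 0.180). The ratio of Sema3a to Sema3f was 0.546 to 0.722 in the controls and 0.495 to 0.666 in the ECKO-labelled libraries.

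ECKO-labelled replicate 1 also had the highest neutrophil marker sum of the set, at 3881, 1773 and 1676 FPKM in replicates 1 to 3 against 2119.8 to 2755 in the controls. Without it, 2 members were called higher and 1 lower, with adjusted p-values of 0.0114 for Sema3f, 0.0191 for Sema3a and 0.0453 for Sema4d, which was lower. For each of these genes it was the ECKO-labelled library closest to the controls, so leaving it out was bound to widen the difference. The part of neutrophil RNA in these values was not tested. With all libraries Sema4d stood at 4.05, 5.45 and 4.61 FPKM in the controls and 3.92, 1.86 and 2.51 FPKM in the ECKO-labelled libraries, with a log2 fold change of -0.63 (adjusted p = 0.139, SE 0.198). Osteoblast and chondrocyte markers summed to 11.1 to 25.2 FPKM in the ECKO-labelled libraries and 42.4 to 53.6 in the controls, with 3 of 7 tested genes called lower and Dmp1 at 0 throughout. The B and T lymphocyte list summed to 215 to 219.97 FPKM in the ECKO-labelled libraries and 256 to 307 in the controls. The part of either list in the values of Sema4d was not tested.

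Of the class 6 ligands, Sema6a stood at 4.20, 6.44 and 5.9996 FPKM in the controls and 8.15, 8.83 and 9.28 FPKM in the ECKO-labelled libraries. Its groups did not overlap, and the log2 fold change was 0.59 (adjusted p = 0.0781, SE 0.147). Sema6d stood at 15.6, 15.5 and 16.02 FPKM in the controls and 19.3, 21.2 and 20.4 FPKM in the ECKO-labelled libraries, a narrow spread in both groups with no overlap, and the log2 fold change was 0.35 (adjusted p = 0.0914, SE 0.0926). Sema6b stood at 7.10, 11.4 and 11.8 FPKM in the controls and 13.5, 13.2 and 13.2 FPKM in the ECKO-labelled libraries. Control replicate 1 was far below the other controls for Sema6b, and the adjusted p-value was 0.246. None of these 3 genes passed the test, although each had an unadjusted p-value under 0.05. By limma-voom on recovered reads Sema6a was called higher (adjusted p = 0.0323).

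Sema3g stood at 4.78, 5.63 and 4.59 FPKM in the controls and 6.47, 6.22 and 6.24 FPKM in the ECKO-labelled libraries, and the adjusted p-value was 0.236. Sema4c, a membrane-bound ligand of Plxnb2, stood at 6.20, 7.34 and 7.60 FPKM in the controls and 7.70, 9.87 and 10.4 FPKM in the ECKO-labelled libraries, with an adjusted p-value of 0.208. For both the ECKO-labelled libraries were above the controls without overlap. Sema4b stood at 11.2, 11.7 and 10.4 FPKM in the controls and 10.9, 7.71 and 8.75 FPKM in the ECKO-labelled libraries, and Sema7a stood at 7.80, 6.35 and 8.28 FPKM in the controls and 5.13, 5.50 and 6.57 FPKM in the ECKO-labelled libraries. These last 2 overlapped between groups, with adjusted p-values of 0.312 and 0.237. Sema3d and Sema4a were between 1.04 and 2.77 FPKM, with overlapping groups.

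Among the receptors Plxnd1 was the most abundant member of the set, at 52.5, 66.9 and 58.6 FPKM in the controls and 72.1, 75.4 and 84.04 FPKM in the ECKO-labelled libraries. The ECKO-labelled libraries were all above the controls, with a log2 fold change of 0.38 (adjusted p = 0.123, SE 0.113). Nrp1 stood at 35.9, 31.4 and 31.5 FPKM in the controls and 37.3, 41.3 and 42.5 FPKM in the ECKO-labelled libraries, also without overlap, with a log2 fold change of 0.29 (adjusted p = 0.168, SE 0.0999). Nrp2 stood at 13.3, 13.4 and 16.5 FPKM in the controls and 14.7, 18.5 and 18.8 FPKM in the ECKO-labelled libraries, with overlapping groups and an adjusted p-value of 0.337. Plxnb2, the receptor for class 4 semaphorins, stood at 18.4, 24.9 and 26.9 FPKM in the controls and 22.6, 16.9 and 19.2 FPKM in the ECKO-labelled libraries, and the log2 fold change was -0.24 (adjusted p = 0.451, SE 0.153). Plxnc1 stood at 10.8, 10.1 and 9.71 FPKM in the controls and 8.25, 9.65 and 9.48 FPKM in the ECKO-labelled libraries. It was the second member, beside Sema4d, with all ECKO-labelled libraries below all controls, and its adjusted p-value was 0.517. Plxna1 stood at 8.61, 9.35 and 9.90 FPKM in the controls and 9.28, 8.89 and 9.58 FPKM in the ECKO-labelled libraries, with a log2 fold change of -0.00436. Plxna2, Plxna3 and Plxna4 were between 1.09 and 3.72 FPKM with overlapping groups. The 10 members that were not tested were all below 1 FPKM in every library of this set.

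Of the pathway lists, the VEGF list had 2 called higher and 0 lower of 7 tested, with a median of 0.22. These were Vegfa, which rose from 21.7 ± 5.45 to 52.8 ± 9.16 FPKM (SD, n = 3, adjusted p = 0.0235), and Flt4, which rose from 53.5 ± 4.29 to 84.1 ± 7.85 FPKM (adjusted p = 0.0347). Without control replicate 3 or ECKO-labelled replicate 2 or 3 the adjusted p-value was 0.0697 to 0.144 for Vegfa and 0.0876 to 0.184 for Flt4. Without control replicate 2 it was 0.0752 for Flt4. Both calls were also lost without the filter on low values, and that of Flt4 with the replicate number as a block. In the other 4 lists no gene was called by limma, of 8 co-receptors, 17 GTPases and regulators, 11 MICALs, mediators and kinases and 6 proteases tested. At an unadjusted p-value under 0.05 were 3, 2, 1 and 2 of them, and limma-voom on the recovered reads called 1 of these genes, Nrcam, which was higher (adjusted p = 0.0456). The medians of these lists were 0.07, 0.12, 0.14 and 0.19.

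In the Lats2 set the targeted gene Lats2 stood at 23.4 and 24.03 FPKM in the controls and 19.2 and 19.2 FPKM in the cKO-labelled libraries. It was lower in both cKO-labelled libraries, with a log2 fold change of -0.29 (adjusted p = 0.125, SE 0.113), and did not pass the test. Wwtr1 was called higher, with a log2 fold change of 0.63 (adjusted p = 0.0257, SE 0.124), at 53.8 and 58.9 FPKM in the controls and 83.3 and 92.5 FPKM in the cKO-labelled libraries. With 2 libraries per group every call rests on few samples, and without either control library 0 genes were called by limma over all genes tested, with 2724 and 2879 at an unadjusted p-value under 0.05.

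The comparison asked which members differ between Lats2 Cre-positive and Cre-negative mice. In the cKO-labelled libraries the ligand Sema3a was at 0.137 and the receptor Plxnc1 at 0.418 of the control level on the scale of FPKM + 1, and the receptor Plxna2 was 2.03-fold higher. Of the 31 members 18 were tested. Plxna2 was called higher and Sema3a and Plxnc1 were called lower in the cKO-labelled libraries, beside 11.8% of all genes tested that were called higher and 9.98% called lower, or 21.8% together. At an unadjusted p-value under 0.05 were 8 of the 18 members, beside 38.6% of all genes tested. In 4 members the cKO-labelled libraries were both above both controls and in 9 both below, beside 34.0% and 34.2% of all genes tested, or 68.2% together. The median log2 fold change was -0.28 for the members and -0.00325 for all genes tested.

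Sema3a stood at 29.4 and 24.3 FPKM in the controls and 3.69 and 2.08 FPKM in the cKO-labelled libraries. Both controls were far above both cKO-labelled libraries. The log2 fold change was -2.87 (adjusted p = 0.00735, SE 0.239), and without control replicate 1 or 2 the adjusted p-value was 0.129 or 0.110. Sema3a made up 11.5% to 15.4% of summed semaphorin FPKM in a control and 1.14% to 2.11% in a cKO-labelled library. Sema3f, the most abundant semaphorin of this set, stood at 62.4 and 73.3 FPKM in the controls and 84.3 and 109.5 FPKM in the cKO-labelled libraries. It did not pass the test, with a log2 fold change of 0.50 (adjusted p = 0.0970, SE 0.173). The ratio of Sema3a to Sema3f was 0.332 to 0.471 in the controls and 0.0190 to 0.0437 in the cKO-labelled libraries. Sema3g stood at 5.54 and 6.52 FPKM in the controls and 10.1 and 5.22 FPKM in the cKO-labelled libraries, with overlapping groups and an adjusted p-value of 0.581.

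The class 6 ligands were lower in both cKO-labelled libraries without passing the test. Sema6a stood at 26.4 and 29.1 FPKM in the controls and 19.1 and 12.8 FPKM in the cKO-labelled libraries, with a log2 fold change of -0.79 (adjusted p = 0.0508, SE 0.206). Sema6a was close to the threshold and was called lower under quantile normalization (adjusted p = 0.0432), under rescaling by median ratios (adjusted p = 0.0498), with a filter at 5 FPKM (adjusted p = 0.0356), by limma-voom on recovered reads (adjusted p = 0.0211) and without cKO replicate 1 (adjusted p = 0.0249). Sema6b stood at 26.6 and 34.9 FPKM in the controls and 20.1 and 20.9 FPKM in the cKO-labelled libraries, with a log2 fold change of -0.55 (adjusted p = 0.0674, SE 0.162). By limma-voom on recovered reads Sema6b was called lower (adjusted p = 0.0464). Sema6d stood at 12.5 and 15.4 FPKM in the controls and 10.5 and 11.01 FPKM in the cKO-labelled libraries, with an adjusted p-value of 0.162.

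Sema6b lies 1083 bases from Lrg1 on the minus strand of chromosome 17, a neighbour that was singled out after its values were seen. Lrg1, which encodes a secreted glycoprotein known from vessel growth, had log2 fold changes of 2.00 (adjusted p = 2.48e-05) in bmECs, 0.59 (adjusted p = 0.108) in the ECKO-labelled libraries and -2.33 (adjusted p = 0.00573) in the cKO-labelled libraries. Sema6b had 0.05, 0.40 and -0.55 in the same contrasts, and none passed the test.

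Of the class 4 ligands, Sema4c stood at 16.3 and 19.1 FPKM in the controls and 17.4 and 12.8 FPKM in the cKO-labelled libraries, with overlapping groups. Sema4d was low, at 1.71 and 1.59 FPKM in the controls and 0.534 and 0.343 FPKM in the cKO-labelled libraries, with a log2 fold change of -0.89 (adjusted p = 0.0599, SE 0.249). It passed the filter through the controls, and limma-voom on recovered reads called it lower (adjusted p = 0.0106). Sema4a ranged from 0.372 to 2.68 FPKM and Sema7a from 1.53 to 5.61 FPKM, with adjusted p-values of 0.158 and 0.133. Blood cell markers were lower in both cKO-labelled libraries than in both controls. Erythroid markers summed to 276 to 1431 against 2543 to 3784 FPKM (3 of 9 tested genes called lower). Megakaryocyte and platelet markers summed to 17.0 to 18.4 against 29.9 to 115.7 FPKM (1 of 5). The B and T lymphocyte list summed to 21.6 to 28.1 against 87.02 to 102 FPKM (5 of 6 tested genes called lower), the neutrophil list to 705 to 850.4 against 1937 to 2889 FPKM (6 of 9), and the macrophage, monocyte and osteoclast list to 68.7 to 299.6 against 449 to 548 FPKM (1 of 7, with 1 higher). Their part in the lower values of Sema4a, Sema4d and Plxnc1 was not tested. Pericyte and marrow stroma markers summed to 110.3 FPKM in both cKO-labelled libraries against 50.1 to 62.1 FPKM in the controls, with 4 of 7 genes called higher, and their part in the values of Plxna2 was not tested.

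Among the receptors Plxna2, which binds Sema6a and pairs with neuropilins, stood at 4.63 and 6.82 FPKM in the controls and 10.9 and 14.2 FPKM in the cKO-labelled libraries. Both cKO-labelled libraries were above both controls, with a log2 fold change of 1.02 (adjusted p = 0.0324, SE 0.221). The adjusted p-value was between 0.0607 and 0.198 when any single library was left out, and 0.0721 without the filter. Plxnc1 stood at 2.49 and 2.27 FPKM in the controls and 0.440 and 0.385 FPKM in the cKO-labelled libraries. It passed the filter through the controls, since both cKO-labelled libraries were below 1 FPKM. The log2 fold change was -1.26 (adjusted p = 0.0221, SE 0.229), and without control replicate 1, control replicate 2 or cKO replicate 2 the adjusted p-value was 0.176, 0.153 or 0.0555.

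The abundant receptors showed smaller differences. Nrp1 stood at 130.1 and 147 FPKM in the controls and 142 and 126 FPKM in the cKO-labelled libraries, and Plxnd1 stood at 92.1 and 132 FPKM in the controls and 116 and 102 FPKM in the cKO-labelled libraries. Both overlapped between groups, with log2 fold changes of -0.05 (SE 0.133) and -0.01 (SE 0.199). Nrp2 stood at 21.1 and 24.7 FPKM in the controls and 19.98 and 16.1 FPKM in the cKO-labelled libraries, lower in both cKO-labelled libraries, with an adjusted p-value of 0.197. Plxnb2 stood at 18.2 and 21.4 FPKM in the controls and 14.4 and 10.5 FPKM in the cKO-labelled libraries, also lower in both, with a log2 fold change of -0.64 (adjusted p = 0.0650, SE 0.187). Plxnb2 was called lower with a filter at 5 FPKM and by limma-voom on recovered reads. Plxna1 stood at 3.76 and 5.68 FPKM in the controls and 6.58 and 6.41 FPKM in the cKO-labelled libraries, higher in both, with an adjusted p-value of 0.208. Plxna4 was between 2.42 and 2.97 FPKM. Of the 13 members that were not tested, 12 were below 1 FPKM in every library and the other, Sema4b, reached 1.08 FPKM.

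**Figure D4:**
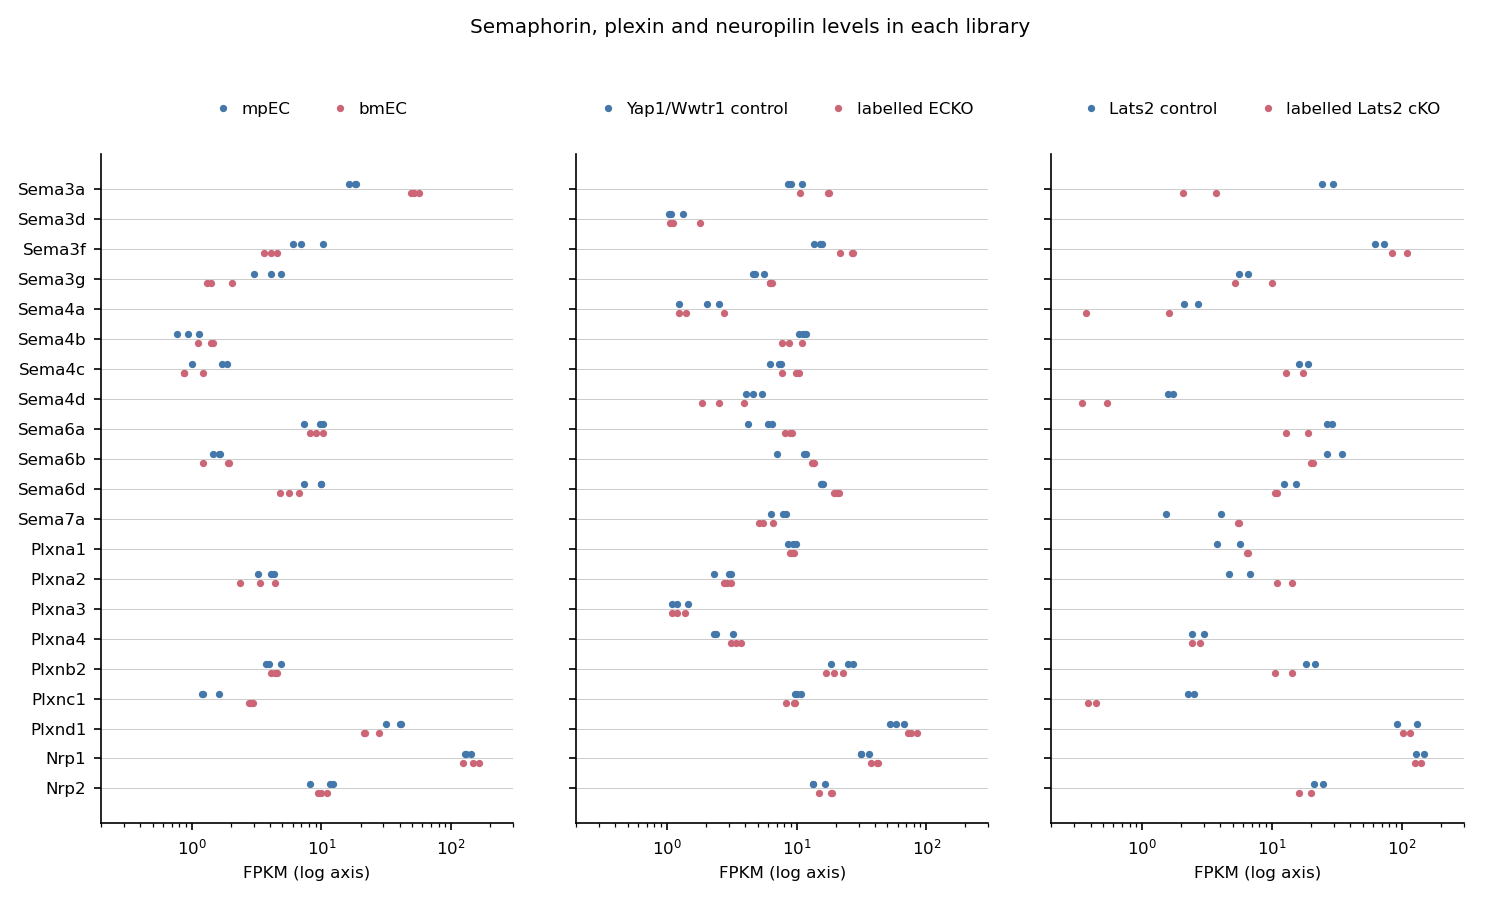
FPKM (log axes) of every member tested in the comparison, 1 row per gene and 1 point per library, with controls or mpECs in blue and bmECs or mutant-labelled libraries in red. Nrp1 and Plxnd1 are among the 3 most abundant members of each set, and Sema3a shows the widest gaps, upward in bmECs and downward in the cKO-labelled libraries.

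Genes of the pathway lists were counted in the Lats2 set too, beside the same 11.8% and 9.98% over all genes tested. The VEGF list had 1 called higher and 4 lower of 7 tested, with a median of -0.78. Pgf rose from 8.72 ± 0.293 to 133 ± 91.7 FPKM (SD, n = 2, adjusted p = 0.0129), with a wide gap between the cKO-labelled libraries at 67.8 and 198 FPKM. Vegfa fell from 7.63 ± 0.207 to 1.16 ± 0.189 FPKM (adjusted p = 0.00758), Flt4 fell from 135 ± 27.97 to 37.3 ± 3.26 FPKM (adjusted p = 0.00910) and Kdr fell from 331 ± 9.92 to 173 ± 32.4 FPKM (adjusted p = 0.0204).

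Of the 17 GTPases and regulators tested 6 were called higher and 0 lower, with a median of 0.19. Rnd3, which reached the filter through the cKO-labelled libraries, rose from 0.750 ± 0.227 to 6.84 ± 2.06 FPKM (adjusted p = 0.0106), and Rnd1, which binds plexin A and B receptors, rose from 4.76 ± 0.884 to 15.6 ± 6.23 FPKM (adjusted p = 0.0257). Of the 11 MICALs, mediators and kinases 4 were called higher and 0 lower, with a median of 0.27, and Dpysl3 rose from 10.4 ± 0.523 to 42.1 ± 10.2 FPKM (adjusted p = 0.00910).

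Of 9 co-receptors tested 2 were called higher and 2 lower, with a median of -0.40. Nrcam fell from 13.3 ± 1.04 to 1.47 ± 0.393 FPKM (adjusted p = 0.00678), and Erbb2, a receptor kinase that partners plexin Bs, fell from 18.4 ± 0.831 to 9.29 ± 0.815 FPKM (adjusted p = 0.0140). Of 7 proteases 1 was called higher and 0 lower, with a median of -0.15, and this was Pcsk6, which rose from 4.55 ± 1.01 to 11.7 ± 1.69 FPKM (adjusted p = 0.0175). All of these calls were lost when either control library was left out, and those of Rnd1, Erbb2 and Pcsk6 also without cKO replicate 2, with adjusted p-values of 0.0660, 0.0512 and 0.0777.

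Set side by side, the 13 members tested in all 3 comparisons had different profiles, as the plot of fold changes shows. Sema3a had log2 fold changes of 1.52 in bmECs, 0.60 in the ECKO-labelled libraries and -2.87 in the cKO-labelled libraries. Plxnc1 had 0.73, -0.15 and -1.26. Sema3a and Plxnc1 were called in both the EC subset and the Lats2 comparison, with opposite signs, although Plxnc1 reached the filter of the Lats2 set through the controls alone. Sema3f had -0.76, 0.72 and 0.50, of which the last was not called. Nrp1 had 0.10, 0.29 and -0.05, and Nrp2 had -0.05, 0.25 and -0.33, none of them called. Whether a fold change differed between comparisons was not tested, since the sets were scaled separately.

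**Figure D5:**
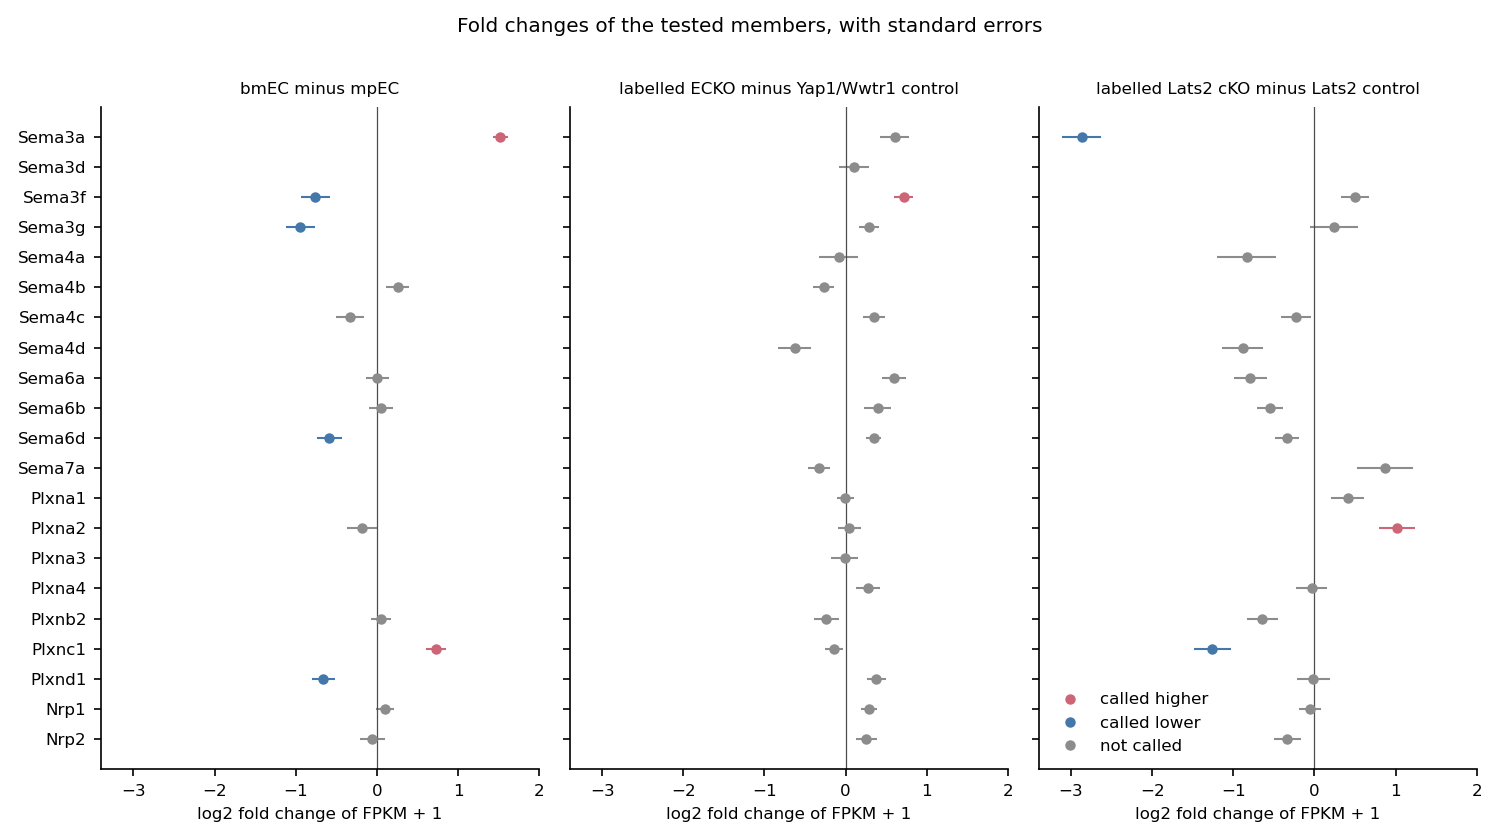
Log2 fold changes of FPKM + 1 with standard errors for the tested members in the 3 comparisons, with called members in red (higher) or blue (lower) and the others in grey. Sema3a lies at 1.52 in bmECs and at -2.87 in the cKO-labelled libraries, and 10 members have no estimate because their mean was below 1 FPKM in every set.

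The 10 members that reached a mean of 1 FPKM in no set were Sema3b, Sema3c, Sema3e, Sema4f, Sema4g, Sema5a, Sema5b, Sema6c, Plxnb1 and Plxnb3. Sema3e, the ligand of Plxnd1, was at 0 in all 6 libraries of the Yap1/Wwtr1 set and at most 0.0897 FPKM in the others. Its receptor Plxnd1 was at 21.2 FPKM or more in all 16 libraries. Sema3c was at most 0.133 FPKM and Sema5b at most 0.199 FPKM.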

How the data were processed

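The authors sorted bone ECs (mpECs and bmECs by the reporter), prepared TruSeq Stranded Total RNA libraries for a MiSeq sequencer, mapped paired reads to GRCm38 (mm10) with TopHat, and counted them per gene with HTSeq 0.6.1, according to the study's methods and the submitters' processing notes. The values used here are the FPKM the authors deposited, in a table each for the EC subsets and the Lats2 set. For the Yap1/Wwtr1 set they were deposited as a separate list for each library. How counts were turned into FPKM and which strand setting the counting used are not given in the sources used here. Reads from overlapping genes or near-identical copies may thus be shared. The study's own test, DESeq2 on counts, was not rerun because no counts were used here.

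Members were matched by symbol, or by Ensembl identifier for the Yap1/Wwtr1 lists, where 21375 of 21603 identifiers matched a name. The members and gene lists were chosen with earlier results of these data known. Genes that averaged 1 FPKM or more in a comparison were tested on log2(FPKM + 1) with limma 3.58.1 (R 4.3.3; empirical Bayes with a trend, two-sided), between the 2 groups of that comparison, and p-values were adjusted by Benjamini-Hochberg over all genes tested. Nothing was tested across comparisons. Values in every library were given for members that were called or had a mean of at least 5 FPKM, and up to 5 called list genes per direction with the largest log2 fold changes in size were named in each comparison. Pearson correlations of libraries within a group were 0.963 to 0.991 and no 2 libraries were identical. Nothing in the labels ties libraries to separate animals, although the methods speak of biological triplicates, so p-values measure the spread between these libraries.

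Reads were recovered from the steps of the FPKM values, and 62.4% to 70.0% of values of at most 20 reads came within 0.02 of a whole number, where chance gives 4%. In a gene of 2000 bases 1 read was worth 0.0405 to 0.133 FPKM. Promoter windows came from RefSeq (GRCm38.p6) and gene positions from GENCODE M21. Alternatives were a pseudocount of 0.1, no filter, a filter at 5 FPKM, quantile and median-of-ratios rescaling, limma-voom on recovered reads, a replicate block, a stricter threshold and leaving out each library.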

Additional observations from a re-analysis of the deposited data

How the results depend on the processing

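Precision was limited by 2 or 3 libraries per group, and for members near 1 FPKM by depth. Members called numbered 6 in bmECs against mpECs, 1 in the ECKO-labelled libraries and 3 in the Lats2 cKO-labelled libraries. No filter gave 9, 0 and 2, limma-voom on recovered reads 6, 3 and 7, the stricter threshold (adjusted p under 0.01 with a log2 difference over 0.5 in size) 3, 0 and 1, and a filter at 5 FPKM 4, 1 and 4. Leaving out single libraries gave 4 to 7, 0 to 3 and 0 to 5. Of the values of single members, 171 of 189, 267 of 288 and 178 of 209 kept their direction and their side of the threshold. Some values turned sign. Sema6a in bmECs was at -0.00576 under median-of-ratios rescaling. With single libraries left out, the log2 fold changes spanned -0.22 to 0.0464 (Nrp2), -0.0150 to 0.15 (Plxnb2), -0.13 to 0.0910 (Sema6a) and -0.0228 to 0.18 (Sema6b) in bmECs. In the ECKO-labelled libraries they spanned -0.0523 to 0.0382 (Plxna1), -0.0516 to 0.11 (Plxna2), -0.0652 to 0.0511 (Plxna3), -0.0445 to 0.18 (Sema3d), -0.32 to 0.0586 (Sema4a) and -0.14 to 0.0773 (Yap1), and in the Lats2 set -0.14 to 0.0396 (Nrp1), -0.14 to 0.0680 (Plxna4), -0.27 to 0.24 (Plxnd1) and -0.17 to 0.66 (Sema3g). Where a Lats2 group was left with 1 library, that library was assumed to vary like the others. The cause of these shifts was not tested.

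Replicate numbers are shared between groups in the labels, but the correlation of deviations was not over 0.1 in every same-numbered pair (0.0876 to 0.307 in the EC subsets, -0.175 to -0.123 in the Yap1/Wwtr1 set and 0.0651 in the Lats2 set), so the numbers were not taken as pairs. In neither set with 3 pairs did every library correlate best with its own number. With the replicate number as a block, 6, 0 and 4 members were called. Over all genes tested the block called 45 genes in the Yap1/Wwtr1 set against 148, and no filter called 1, while limma-voom called 271 higher and 115 lower.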
